A study of Mus musculus with 36 samples.

Results

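The interferon response and MHC class I genes are 39 of the 55536 annotated genes counted in these mouse kidneys. They were chosen by gene symbol, with earlier results of these data known, and 38 of them passed the filter on low counts. The set holds 4 transcription factors, 18 antiviral effectors, 3 nucleic acid sensors, 4 genes of ADP-ribosylation and ubiquitin transfer, 6 interferon-induced GTPases and 4 genes of MHC class I presentation. The one gene under the filter was Ifi47, an immunity-related GTPase, with a mean of 0.149 CPM, reads scaled to a common library size. Kidney RNA from 2 genotypes was compared, C57BL/6 (labelled b6j) and ob/ob (labelled ob), which lacks functional leptin and whose strain label is also C57BL/6. Each genotype had an untreated group, a group given CdCl2 at 0.5 mg/kg and a group given 2 mg/kg, with 6 libraries in each of the 6 groups. The labels give no route, duration, sex or age, and they do not say whether each library is a separate animal, so a p-value measures the spread between these libraries. All tissue was whole kidney, in which fewer cells of a type and less RNA per cell cannot be told apart.

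Total reads ranged from 26783936 to 37244058 per library, at which 3 reads equal 0.0851 to 0.112 CPM. One library stood apart from all others: replicate 5 of the ob/ob 2 mg/kg group was the highest of its group for 36.31% of all tested genes and the lowest for 40.89%. Its summed proximal tubule markers were 2605 CPM against 12360 to 19070 CPM in the other 5 libraries of the group. Values without this library are given beside many of the calls and values that it changed. Proximal tubule markers, genes of the main cell of the kidney cortex, were present in all 36 libraries, with summed levels from 2605 to 51790 CPM.

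Type I interferons bind a receptor of Ifnar1 and Ifnar2, and the kinases Jak1 and Tyk2 then activate Stat2. With Irf9 it is part of the complex ISGF3, which binds the interferon-stimulated response element (ISRE) in the promoters of antiviral genes. Interferon gamma acts through Ifngr1 and Ifngr2 and through the gamma-activated site (GAS) in promoters, and it is best known for raising Irf1, guanylate-binding proteins, immunity-related GTPases and antigen presentation. MHC class I molecules, a heavy chain with B2m, show peptides pumped in by the Tap transporter to cytotoxic T cells, and tubule cells carry them.

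Promoters of 30 of the 39 genes were found in the RefSeq table (GRCm38.p6), each spanning 250 bases before to 50 bases after the start. A pair of short patterns was searched on both strands: the ISRE core GAAANNGAAA, read as TTTCNNTTTC on the other strand, and the GAS pattern TTCNNNGAA, which reads the same on both. Matches of the ISRE core may overlap each other. The ISRE core was present in 16 of the 30 genes (53.3%), against 1079 of the 27025 genes with a promoter in the table (3.99%). The GAS pattern was present in 7 of the 30 (23.3%), against 9.55% of all genes. A match is a description of the letters and was not tested as a binding site.

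The 8 promoter stretches below run from 160 bases before the RefSeq start up to the start, 5′ to 3′ on the gene's strand, with the ISRE core matches in capitals. They are shown because 7 of these genes rose at 2 mg/kg in both genotypes, while Rsad2 carries the same core and passed the test in neither.
Ifit1: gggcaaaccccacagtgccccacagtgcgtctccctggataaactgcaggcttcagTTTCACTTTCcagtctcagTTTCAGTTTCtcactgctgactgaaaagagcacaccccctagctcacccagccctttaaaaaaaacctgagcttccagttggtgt
Ifit3: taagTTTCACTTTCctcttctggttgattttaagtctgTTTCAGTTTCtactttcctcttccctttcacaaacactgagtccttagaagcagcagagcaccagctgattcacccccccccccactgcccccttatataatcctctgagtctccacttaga
Isg15: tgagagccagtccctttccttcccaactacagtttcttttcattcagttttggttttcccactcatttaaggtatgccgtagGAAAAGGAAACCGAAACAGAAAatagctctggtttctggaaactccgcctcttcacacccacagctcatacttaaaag
Bst2: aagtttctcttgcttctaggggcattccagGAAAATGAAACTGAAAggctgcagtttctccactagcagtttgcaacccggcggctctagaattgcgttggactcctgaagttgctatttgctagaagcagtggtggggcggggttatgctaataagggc
Oas1a: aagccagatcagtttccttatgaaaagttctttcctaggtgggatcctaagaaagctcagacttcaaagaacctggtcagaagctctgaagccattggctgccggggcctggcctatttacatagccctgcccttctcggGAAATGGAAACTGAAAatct
Gbp3: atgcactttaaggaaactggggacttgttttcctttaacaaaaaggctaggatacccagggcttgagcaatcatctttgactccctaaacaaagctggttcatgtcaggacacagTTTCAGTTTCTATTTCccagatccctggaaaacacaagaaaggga
B2m: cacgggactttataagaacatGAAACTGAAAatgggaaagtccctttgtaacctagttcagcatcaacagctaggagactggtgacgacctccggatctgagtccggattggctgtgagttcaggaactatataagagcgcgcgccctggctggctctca
Rsad2: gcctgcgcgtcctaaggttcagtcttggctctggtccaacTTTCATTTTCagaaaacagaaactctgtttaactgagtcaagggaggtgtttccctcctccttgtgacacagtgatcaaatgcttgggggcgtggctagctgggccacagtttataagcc

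The stretches lie at chr19:34640729-34640888 on the plus strand (Ifit1), chr19:34583369-34583528 plus (Ifit3), chr4:156200819-156200978 minus (Isg15) and chr8:71537473-71537632 minus (Bst2). The others lie at chr5:120907526-120907685 minus (Oas1a), chr3:142559884-142560043 plus (Gbp3), chr2:122147527-122147686 plus (B2m) and chr12:26456453-26456612 minus (Rsad2). Isg15 holds 3 overlapping matches, the first beginning 78 bases before the start. In Ifit1 a pair of separate matches begins 104 and 85 bases before the start, and in Oas1a a pair that overlaps begins 20 and 14 bases before it. The core was present in 10 of the 18 matched genes that rose in both genotypes (55.6%), in 3 of the 4 called in 1 genotype and in 3 of the 7 called in neither (42.9%). These counts are too small to rank.

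At 2 mg/kg, 28 of the 38 tested genes rose in C57BL/6 kidneys and none fell, by edgeR's quasi-likelihood test with Benjamini-Hochberg adjustment at 0.05. Over all 18180 genes tested, 12.3% were called higher and 11.4% lower in that comparison. The median log2 change was 0.64 for the 38 genes and 0.02 for all genes. In ob/ob kidneys 28 of the 38 also rose and none fell, against 20.4% of all genes called higher and 18.0% lower, with a median log2 change of 0.63 against 0.01. The same 25 genes rose in both genotypes, which is 89.3% of each list of 28. Among all genes, 1648 were called higher in both (9.07% of those tested). They were part of 2232 genes called higher in C57BL/6 and of 3708 in ob/ob. All 6 treated libraries lay above all 6 untreated ones for 12 of the 38 genes in C57BL/6 and for 15 of the 38 in ob/ob. The matching share over all genes was not counted, so these 2 counts have no background to be set against. The count in C57BL/6 fell to 18 without replicate 6 of its 2 mg/kg group, the library with the highest levels of these genes. Without ob/ob 2 mg/kg replicate 5 the counts were 30 in C57BL/6 and 31 in ob/ob, against 17% and 19.1% of all genes called higher.

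**Figure D1:**
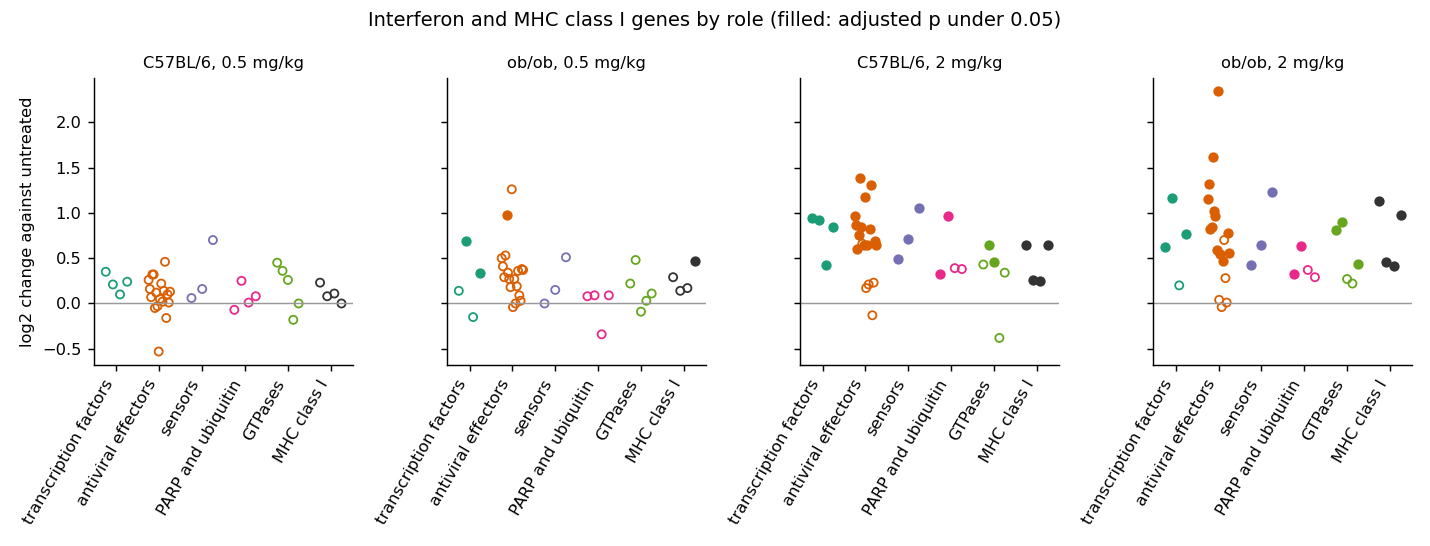
Log2 change against untreated libraries of the same genotype (y axis) for each gene by role (x axis), in 4 panels by genotype and dose. Filled points passed the test at an adjusted p of 0.05: none in C57BL/6 at 0.5 mg/kg, 4 in ob/ob at 0.5 mg/kg, and 28 in each genotype at 2 mg/kg.

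Of the 4 transcription factors, all 4 rose at 2 mg/kg in C57BL/6 and 3 in ob/ob. Stat2, a subunit of ISGF3, had a lowest, median and highest level of 19.0, 22.1 and 24.2 CPM in untreated C57BL/6 libraries and of 33.5, 38.6 and 44.2 CPM at 2 mg/kg. The same 3 values in ob/ob were 21.0, 22.7 and 24.97 CPM untreated and 31.8, 40.3 and 43.6 CPM at 2 mg/kg. The groups did not overlap in either genotype, and Stat2 had the smallest adjusted p of the 38 genes in C57BL/6. Its log2 change was 0.84 ± 0.08 (SE) in C57BL/6 (adjusted p = 2.5e-10, edgeR) and 0.77 ± 0.08 in ob/ob (adjusted p = 8.22e-10). Irf7, the factor that amplifies type I interferon production, ran from 9.31 through a median of 11.8 to 15.8 CPM in untreated C57BL/6 and from 17.1 through 20.1 to 41.6 CPM at 2 mg/kg. In ob/ob it ran from 9.12 through 11.9 to 12.7 CPM untreated and from 20.5 through 25.7 to 31.7 CPM at 2 mg/kg. Again no treated library reached down to an untreated one. The log2 changes were 0.92 ± 0.21 (adjusted p = 0.00104, edgeR) and 1.16 ± 0.21 (adjusted p = 3.55e-05). The C57BL/6 value was 0.66 without replicate 6, whose level of 41.6 CPM stood far above the next of 21.6 CPM.

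Irf1, induced by interferon gamma and by other inflammatory signals, had a lowest, median and highest of 13.8, 15.6 and 17.7 CPM in untreated C57BL/6 and of 28.0, 29.1 and 34.2 CPM at 2 mg/kg. Its ob/ob values were 18.6, 19.3 and 23.4 CPM untreated and 21.3, 32.7 and 38.2 CPM at 2 mg/kg. The C57BL/6 groups were fully separate, whereas in ob/ob 1 treated library, replicate 5, lay within the untreated range. Irf1 rose by 0.94 ± 0.12 on the log2 scale in C57BL/6 (adjusted p = 3.34e-07, edgeR) and by 0.62 ± 0.12 in ob/ob (adjusted p = 9.27e-05), which became 0.72 without that library. Irf9, the DNA-binding subunit of ISGF3, had the smallest log2 change of the 4 in both genotypes. Its median was 15.2 CPM untreated and 20.2 CPM at 2 mg/kg in C57BL/6, with ranges of 12.4 to 19.0 and 18.1 to 24.6 CPM that overlapped. Irf9 rose there by 0.42 ± 0.12 (adjusted p = 0.0106, edgeR). The ob/ob ranges, 14.96 to 21.4 CPM untreated and 16.1 to 29.6 CPM at 2 mg/kg, also overlapped, and the change of 0.20 ± 0.12 did not pass the test (adjusted p = 0.197, edgeR).

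Among the 18 antiviral effectors, 13 rose in each genotype at 2 mg/kg, with median log2 changes of 0.68 in C57BL/6 and 0.74 in ob/ob. Bst2 (tetherin), a membrane protein that holds budding virus at the cell surface, had the largest log2 change of the effectors in C57BL/6. Its lowest, median and highest levels were 12.7, 16.02 and 18.4 CPM untreated and 33.9, 36.8 and 62.1 CPM at 2 mg/kg. In ob/ob they were 14.6, 16.1 and 19.1 CPM untreated and 46.0, 50.4 and 56.6 CPM at 2 mg/kg. Both pairs of groups were separated by a wide gap. Bst2 rose by 1.38 ± 0.15 in C57BL/6 (adjusted p = 7.08e-09, edgeR) and by 1.62 ± 0.15 in ob/ob (adjusted p = 1.17e-10). Its promoter, printed above, holds a pair of overlapping ISRE cores.

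**Figure D2:**
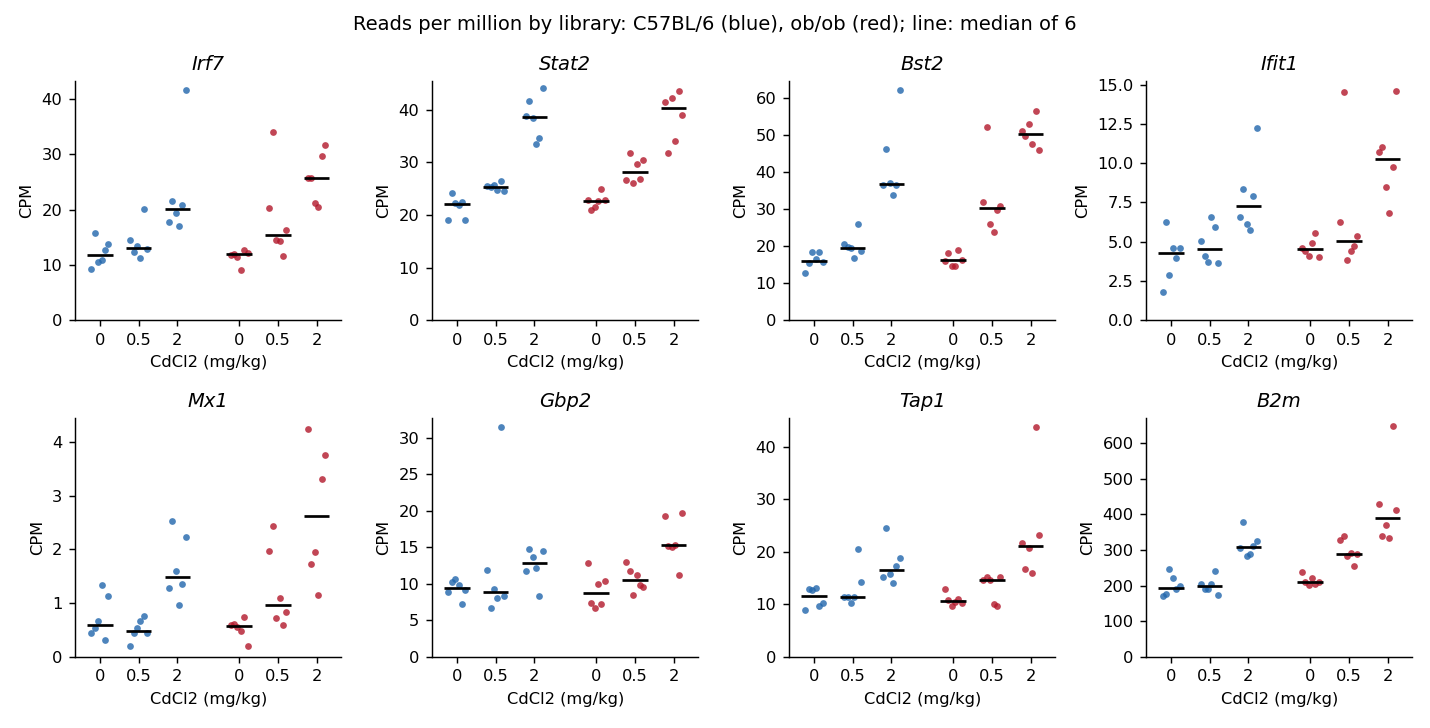
CPM (y axis) in each of the 36 libraries by CdCl2 dose (x axis) for 8 genes, C57BL/6 in blue and ob/ob in red, with the median of 6 as a line. Bst2 and Stat2 at 2 mg/kg lie above every untreated library of their genotype, and single high libraries stand out for Irf7, Ifit1 and Gbp2.

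The Ifit proteins bind viral RNA that lacks host cap modifications. Ifit2 ran from 7.96 through a median of 9.22 to 11.5 CPM in untreated C57BL/6 and from 14.3 through 16.8 to 22.8 CPM at 2 mg/kg. In ob/ob it ran from 9.16 through 9.99 to 10.9 CPM untreated and from 18.8 through 25.9 to 28.3 CPM at 2 mg/kg. Neither pair of groups overlapped, and the log2 changes were 0.87 ± 0.16 (adjusted p = 9.03e-05, edgeR) and 1.32 ± 0.16 (adjusted p = 5.41e-08). Ifit1 was lower, from 1.82 through 4.28 to 6.28 CPM untreated and from 5.71 through 7.25 to 12.3 CPM at 2 mg/kg in C57BL/6, where the ranges overlapped. Its ob/ob range was 3.997 to 5.56 CPM untreated, with a median of 4.53, and 6.80 to 14.6 CPM at 2 mg/kg, with a median of 10.3. Ifit1 rose by 0.96 ± 0.27 (adjusted p = 0.00741, edgeR) and 1.15 ± 0.27 (adjusted p = 0.000782), with no overlap in ob/ob.

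Mx1, a dynamin-like GTPase against influenza-type viruses whose allele in C57BL/6 mice is known to encode no functional protein, was the least abundant tested gene of the set. Its lowest, median and highest levels were 0.312, 0.601 and 1.34 CPM in untreated C57BL/6 and 0.957, 1.49 and 2.53 CPM at 2 mg/kg. In ob/ob they were 0.193, 0.579 and 0.739 CPM untreated and 1.16, 2.63 and 4.25 CPM at 2 mg/kg. The ob/ob groups were separate and the C57BL/6 groups overlapped. Mx1 rose by 1.17 ± 0.38 in C57BL/6 (adjusted p = 0.0228, edgeR) and by 2.34 ± 0.39 in ob/ob (adjusted p = 1.34e-05), the largest log2 change of any of the 38 genes. The C57BL/6 call was lost in 5 of 13 fits that left out 1 library, those without untreated replicate 1, 2 or 5 or treated replicate 2 or 6. The difference between the genotypes was 1.17 ± 0.54 with a 95% interval of 0.07 to 2.27, and its adjusted p over all genes was 0.26 (edgeR interaction term).

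Isg15, a ubiquitin-like protein, had a median of 3.11 CPM (range 2.18 to 3.56) in untreated C57BL/6 and of 3.91 CPM (3.49 to 10.1) at 2 mg/kg. In ob/ob the median was 3.15 CPM (2.48 to 3.84) untreated and 5.99 CPM (2.12 to 7.99) at 2 mg/kg. The ranges overlapped in both genotypes, with replicate 6 the highest in C57BL/6 and ob/ob replicate 5 below every untreated library. Isg15 rose by 0.76 ± 0.27 (adjusted p = 0.0369, edgeR) and by 0.84 ± 0.27 (adjusted p = 0.0135), but the C57BL/6 value was 0.44 without replicate 6 (adjusted p = 0.229, edgeR), and the call was also lost without treated replicate 2 or any of untreated replicates 1, 3, 4 and 6. Oas1a, which makes the 2-5A signal that activates RNase L, had a median of 3.49 CPM (2.73 to 3.98) untreated and 5.44 CPM (3.597 to 10.9) at 2 mg/kg in C57BL/6. In ob/ob its median was 2.93 CPM (1.92 to 3.93) untreated and 5.45 CPM (3.65 to 7.98) at 2 mg/kg. Ranges overlapped slightly, and the log2 changes were 0.84 ± 0.21 (adjusted p = 0.00308, edgeR) and 1.02 ± 0.21 (adjusted p = 0.000239). Ifi27, a small membrane protein, rose from a median of 27.8 CPM (24.7 to 36.2) to 45.7 CPM (34.8 to 75.2) in C57BL/6, by 0.82 ± 0.14 (adjusted p = 3.78e-05, edgeR). In ob/ob it went from 35.3 CPM (34.8 to 37.9) to 51.0 CPM (37.8 to 55.7), by 0.47 ± 0.14 (adjusted p = 0.00876, edgeR), with a slight overlap in both genotypes.

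Among the effectors that did not pass the test was Rsad2 (viperin), which makes an antiviral nucleotide. It had a median of 23.2 CPM (19.4 to 26.7) in untreated C57BL/6 and 25.6 CPM (19.5 to 36.2) at 2 mg/kg, and 29.0 CPM (26.95 to 31.5) and 28.0 CPM (21.2 to 48.7) in ob/ob. The groups overlapped in both genotypes, and the log2 changes of 0.17 ± 0.15 and 0.04 ± 0.15 did not pass the test (adjusted p = 0.456 and 0.875, edgeR). The ob/ob value was -0.15 without replicate 5. Cmpk2, its neighbour on chromosome 12 and a nucleotide kinase, gave 0.21 ± 0.15 and -0.04 ± 0.15, and Ifi44 gave 0.23 ± 0.19 and 0.01 ± 0.19. Ifi35 gave -0.13 ± 0.12 in C57BL/6 and 0.28 ± 0.12 in ob/ob. None of these 4 passed in either genotype. Oas2 (0.66 and 0.97) was called in ob/ob, and that call was lost without ob/ob replicate 6 (0.68, adjusted p = 0.0762, edgeR). Ifi27l2a (1.31 and 0.70) was called in C57BL/6, and without ob/ob replicate 5 it was called in ob/ob too (0.93, adjusted p = 0.00866, edgeR). The other effectors, Ifit3, Oasl2, Usp18, Rtp4 and Xaf1, rose in both genotypes by 0.55 to 0.82 on the log2 scale. All 5 lost their C57BL/6 call without treated replicate 6. Oasl2 and Usp18 lost it in 5 and 3 of the 13 fits that left out 1 library. In ob/ob Oasl2, Usp18 and Xaf1 lost their call in 5, 8 and 2 of 12 such fits, each time also without treated replicate 6 there.

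All 3 sensors rose in both genotypes at 2 mg/kg. Ddx58 (RIG-I), which detects viral RNA ends, had a lowest, median and highest of 19.7, 24.1 and 29.2 CPM in untreated C57BL/6 and of 34.0, 39.6 and 50.1 CPM at 2 mg/kg. Its ob/ob values were 25.2, 31.6 and 33.8 CPM untreated and 39.5, 46.9 and 57.9 CPM at 2 mg/kg. No groups overlapped, and Ddx58 rose by 0.71 ± 0.10 (adjusted p = 3.3e-06, edgeR) and 0.64 ± 0.10 (adjusted p = 7.88e-06). Ifih1 (MDA5), which detects long double-stranded RNA, had a median of 12.3 CPM (11.2 to 14.7) untreated and 16.5 CPM (14.6 to 22.8) at 2 mg/kg in C57BL/6, a rise of 0.49 ± 0.12 (adjusted p = 0.00366, edgeR). Its ob/ob median was 13.97 CPM (11.9 to 16.5) untreated and 17.7 CPM (15.4 to 24.5) at 2 mg/kg, a rise of 0.42 ± 0.12 (adjusted p = 0.00665, edgeR). Both pairs of Ifih1 ranges overlapped by 1 treated library. Zbp1, a sensor of Z-form nucleic acids that can start necroptosis, was rare, with a median of 1.25 CPM (0.655 to 1.46) untreated and 2.06 CPM (1.54 to 4.70) at 2 mg/kg in C57BL/6. In ob/ob it had a median of 1.07 CPM (0.533 to 1.77) untreated and 2.43 CPM (1.06 to 3.73) at 2 mg/kg. Zbp1 rose by 1.05 ± 0.33 (adjusted p = 0.0182, edgeR) and 1.23 ± 0.33 (adjusted p = 0.00341), with no overlap in C57BL/6, but the C57BL/6 call was lost without treated replicate 6 or untreated replicate 1.

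Of the 4 genes of ADP-ribosylation and ubiquitin transfer, Parp14 and Parp9 rose in both genotypes, and Dtx3l and Trim30a passed in neither with all libraries. Parp14, a mono-ADP-ribosyltransferase, had a lowest, median and highest of 8.98, 15.8 and 19.7 CPM in untreated C57BL/6 and of 24.3, 28.4 and 43.0 CPM at 2 mg/kg. Its ob/ob values were 15.7, 18.5 and 20.9 CPM untreated and 22.3, 26.2 and 41.4 CPM at 2 mg/kg. The groups did not overlap in either genotype. Parp14 rose by 0.97 ± 0.15 in C57BL/6 (adjusted p = 1.05e-05, edgeR) and by 0.63 ± 0.15 in ob/ob (adjusted p = 0.00115). Parp9, which pairs with Dtx3l, rose by 0.32 ± 0.09 and 0.33 ± 0.09 (adjusted p = 0.00905 and 0.00413, edgeR). Dtx3l gave 0.39 ± 0.18 and 0.37 ± 0.18, and Trim30a gave 0.38 ± 0.17 and 0.29 ± 0.17. Without ob/ob replicate 5, Trim30a passed in both genotypes (0.38 and 0.44, adjusted p = 0.0279 and 0.0112, edgeR) and Dtx3l in ob/ob (0.48, adjusted p = 0.0274). Parp9 and Dtx3l share 458 exon bases on opposite strands, and the counting ignored strand, so reads there cannot be told apart.

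The interferon-induced GTPases act on the vacuoles of intracellular microbes. Of the 5 tested, 2 rose in C57BL/6 and 3 in ob/ob. Gbp2, a guanylate-binding protein, had a median of 9.44 CPM (7.24 to 10.6) in untreated C57BL/6 and 12.9 CPM (8.38 to 14.8) at 2 mg/kg, and the change of 0.43 ± 0.24 did not pass the test (adjusted p = 0.215, edgeR). In ob/ob its median was 8.70 CPM (6.68 to 12.9) untreated and 15.3 CPM (11.2 to 19.7) at 2 mg/kg, a rise of 0.81 ± 0.24 (adjusted p = 0.00853, edgeR). The Gbp2 ranges overlapped by 1 treated library in each genotype. Gbp3 rose in both, by 0.64 ± 0.18 and 0.90 ± 0.18 (adjusted p = 0.00892 and 0.00018, edgeR). Igtp, also named Irgm3, is an immunity-related GTPase. Its median was 17.5 CPM (13.8 to 21.6) untreated and 12.9 CPM (11.5 to 18.7) at 2 mg/kg in C57BL/6. In ob/ob the medians were 11.7 CPM (9.62 to 14.1) and 14.04 CPM (8.51 to 17.9). Neither change passed the test, at -0.38 ± 0.21 and 0.22 ± 0.21 (adjusted p = 0.201 and 0.416, edgeR), and the ranges overlapped. Gbp7 was called in C57BL/6 (0.46, against 0.27 in ob/ob), a call lost in 6 of 13 fits that left out 1 library. Irgm1 was called in ob/ob (0.44, against 0.34 in C57BL/6), and without ob/ob replicate 5 in C57BL/6 too (0.33, adjusted p = 0.0313, edgeR). Neither difference between genotypes passed the interaction test. Igtp shares 162 exon bases with Irgm2 on the same strand, so its count is uncertain there.

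All 4 MHC class I genes rose in both genotypes. B2m, H2-K1 and H2-D1 were also the most abundant of the 39 genes per length: in untreated libraries B2m had a level of 241 CPM per kilobase of exon, H2-K1 109 and H2-D1 96.9, above Ifi27 at 21.98 and Bst2 at 18.1. Tap1 was far lower, at 2.02 CPM per kilobase. B2m, the invariant light chain, had a lowest, median and highest of 170, 194 and 245 CPM in untreated C57BL/6 and of 283, 309 and 378 CPM at 2 mg/kg. Its ob/ob values were 202, 210 and 239 CPM untreated and 333, 391 and 648 CPM at 2 mg/kg. Treated libraries lay above untreated ones without overlap in both genotypes. B2m rose by 0.65 ± 0.12 in C57BL/6 (adjusted p = 6.75e-05, edgeR) and by 0.98 ± 0.12 in ob/ob (adjusted p = 4.67e-08), or 0.82 without replicate 5, which held the 648 CPM.

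Tap1, a subunit of the peptide transporter, had a median of 11.5 CPM (8.95 to 13.0) untreated and 16.5 CPM (14.2 to 24.5) at 2 mg/kg in C57BL/6, a rise of 0.65 ± 0.19 (adjusted p = 0.0116, edgeR). In ob/ob its median was 10.6 CPM (9.59 to 13.0) untreated and 21.2 CPM (15.9 to 43.8) at 2 mg/kg, a rise of 1.13 ± 0.19 (adjusted p = 1.59e-05, edgeR), or 0.87 without replicate 5. The Tap1 groups did not overlap in either genotype, although the C57BL/6 call was lost without its treated replicate 2. H2-K1, a classical heavy chain, had a median of 321 CPM (289 to 360) untreated and 386 CPM (345 to 444) at 2 mg/kg in C57BL/6. In ob/ob its median was 315 CPM (308 to 348) untreated and 421 CPM (394 to 584) at 2 mg/kg. The ranges overlapped in C57BL/6 and were separate in ob/ob. H2-K1 rose by 0.26 ± 0.08 (adjusted p = 0.00978, edgeR) and 0.46 ± 0.08 (adjusted p = 1.31e-05), and H2-D1 by 0.25 ± 0.09 and 0.41 ± 0.09 (adjusted p = 0.0341 and 0.000306, edgeR). The C57BL/6 call of H2-D1 was lost in 7 of 13 fits that left out 1 library. Class I heavy chains are near copies of each other, as are the Ifit, Oas1 and Gbp families, so the division of reads among them is uncertain.

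**Figure D3:**
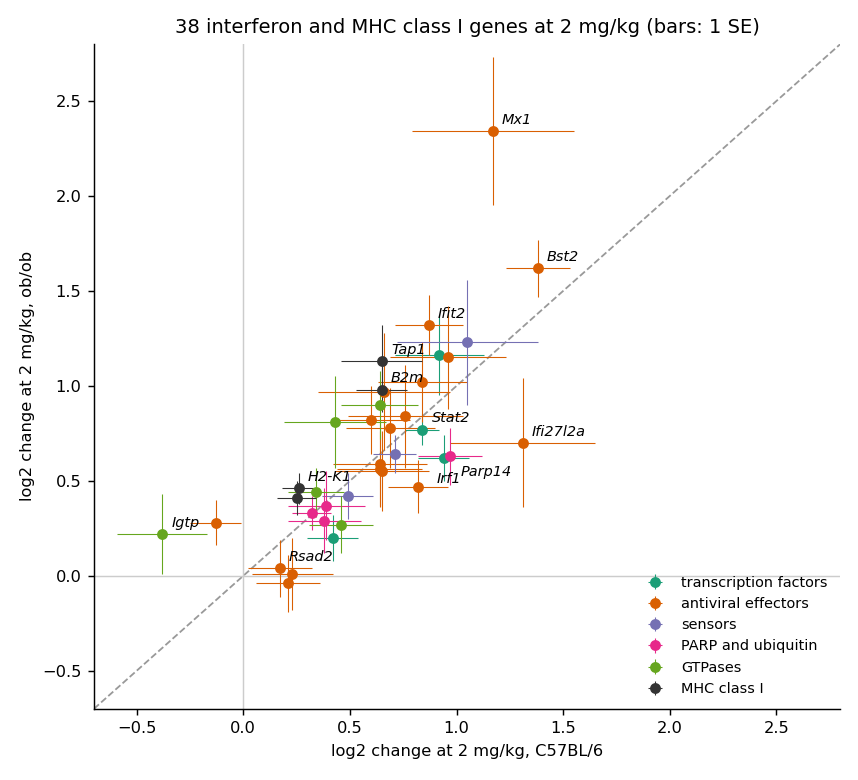
Log2 change at 2 mg/kg in C57BL/6 (x axis) and in ob/ob (y axis) for the 38 tested genes, coloured by role, with 1 SE as bars; the dashed line marks equal change. Mx1 lies farthest above the line (1.17 against 2.34), Ifi27l2a lies farthest below it (1.31 against 0.70), and 36 of the 38 values in C57BL/6 and 37 of the 38 in ob/ob are above 0.

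At 0.5 mg/kg, none of the 38 genes passed the test in C57BL/6, where 0.297% of all genes were called higher and 0.0275% lower. Of the 38, 4 had an unadjusted p under 0.05 (edgeR), and DESeq2 also called 0. Stat2 had the smallest p, with 24.5, 25.4 and 26.4 CPM as its lowest, median and highest level: all 6 libraries lay above the untreated ones, but the log2 change of 0.24 ± 0.08 had an adjusted p of 0.332 (edgeR). In ob/ob 4 genes rose at this dose, Bst2, Stat2, B2m and Irf7, against 3.55% of all genes called higher and 0.737% lower. Bst2 had 23.7, 30.4 and 52.2 CPM as its lowest, median and highest level, all above the untreated maximum of 19.1 CPM, and rose by 0.98 ± 0.15 (adjusted p = 1.65e-05, edgeR). Stat2, with a range of 26.01 to 31.9 CPM, rose by 0.34 ± 0.08 (adjusted p = 0.00551, edgeR). B2m, with a range of 255 to 340 CPM, rose by 0.47 ± 0.12 (adjusted p = 0.0117, edgeR). These 3 genes showed no overlap with the untreated group. Irf7 had an adjusted p of 0.0499 (edgeR), and its log2 change of 0.69 ± 0.21 became 0.42 without replicate 2, which had 34.04 CPM against a group median of 15.4. That call was lost in 9 of the 13 fits, including those without any 1 of the 6 untreated libraries. Without ob/ob 2 mg/kg replicate 5 in the fit, Mx1 was called as well (1.26, adjusted p = 0.0343, edgeR), when 6.65% of all genes were called higher.

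Between the doses, 16 of the 38 genes were higher at 2 than at 0.5 mg/kg in C57BL/6, against 8.78% of all genes called higher and 8.51% lower. In ob/ob 17 of 38 were higher, against 15.2% of all genes higher and 14.5% lower (29.7% either way). None of the 38 was lower in either. Without ob/ob 2 mg/kg replicate 5 the counts were 23 in C57BL/6 and 21 in ob/ob, against 13.5% and 13.4% of all genes called higher. In C57BL/6 the largest log2 differences between the doses were those of Mx1, 1.69 ± 0.39 (adjusted p = 0.00215, edgeR), and Bst2, 1.06 ± 0.15 (adjusted p = 2.09e-06, edgeR). The largest in ob/ob were those of Mx1, 1.08 ± 0.37 (adjusted p = 0.0259, edgeR), and Ifit2, 0.91 ± 0.16 (adjusted p = 6.67e-05, edgeR). The ob/ob call of Mx1 was lost in 5 of 12 fits that left out 1 library (those without low-dose replicate 3, 5 or 6 or high-dose replicate 1 or 6) and in the fit to the compared groups alone. Bst2 differed between the ob/ob doses by 0.64 ± 0.14 (adjusted p = 0.000989, edgeR), with 1 low-dose library, replicate 2, inside the high-dose range.

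In untreated kidneys 3 of the 38 genes differed between the genotypes. Irf1 (0.37 ± 0.12) and Ddx58 (0.33 ± 0.10) were called higher in ob/ob and Igtp (-0.63 ± 0.21) lower, with adjusted p-values of 0.0308, 0.0264 and 0.0344 (edgeR). Among all genes 6.6% were called higher and 8.93% lower. Each call was lost in some of the 13 fits that left out 1 library: Irf1 in 5, Ddx58 in 6 and Igtp in 5, each time without 1 of the untreated libraries. Without ob/ob 2 mg/kg replicate 5, Rsad2 (0.34) and Trim30a (0.41) were called higher in ob/ob too (adjusted p = 0.0395 and 0.0225, edgeR). In that fit 11.8% of all genes were called higher and 14.2% lower. The responses themselves were compared by interaction terms. None of the 38 genes had a response to 2 mg/kg that differed between genotypes (1.06% of all genes were called higher in ob/ob and 1.01% lower), with 3 at an unadjusted p under 0.05 by edgeR and 0 calls by DESeq2. The 3 were Mx1, Ifi35 and Igtp. Intervals allow sizeable differences for rare genes and for some abundant ones. The 95% interval of the ob/ob minus C57BL/6 difference was -0.29 to 0.15 for Stat2, -0.17 to 0.65 for Bst2 and -0.03 to 0.41 for H2-K1. For B2m it was 0 to 0.64, and for Isg15 -0.70 to 0.84. At 0.5 mg/kg also no gene passed (0.369% of all genes were called higher and 0.0165% lower), with 3 at an unadjusted p under 0.05 by edgeR and 0 calls by DESeq2. These 3 were Mx1, Bst2 and B2m. Without ob/ob 2 mg/kg replicate 5 B2m passed at 0.5 mg/kg with a difference of 0.46 (adjusted p = 0.0495, edgeR). In the fit with all 36 libraries, calls in 1 genotype at the low dose are not shown to be particular to it.

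Single libraries were high for many of these genes at once. The mean over the 38 genes of log2 CPM, set to 0 at the mean of the 12 untreated libraries, had a lowest, median and highest value of -0.32, 0.01 and 0.07 in untreated C57BL/6, of -0.18, 0.05 and 0.49 at 0.5 mg/kg and of 0.31, 0.46 and 1.03 at 2 mg/kg. In ob/ob the values were -0.12, 0.00 and 0.19 untreated, 0.00, 0.20 and 0.68 at 0.5 mg/kg and 0.38, 0.62 and 1.05 at 2 mg/kg. Replicate 6 of C57BL/6 at 2 mg/kg was the highest of its 6 libraries for 30 of the 38 genes (78.9%), while it was the highest for 18.8% of all tested genes. For replicate 5 of C57BL/6 at 0.5 mg/kg the count was 27 of 38 (71.1%, against 13.9% of all genes), and for replicate 2 of ob/ob at 0.5 mg/kg 28 of 38 (73.7%, against 18.2%). Replicate 6 of ob/ob at 2 mg/kg was the highest for 23 of 38 (60.5%, against 15.4%). These libraries are described because of their levels, and no test was made of them.

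**Figure D4:**
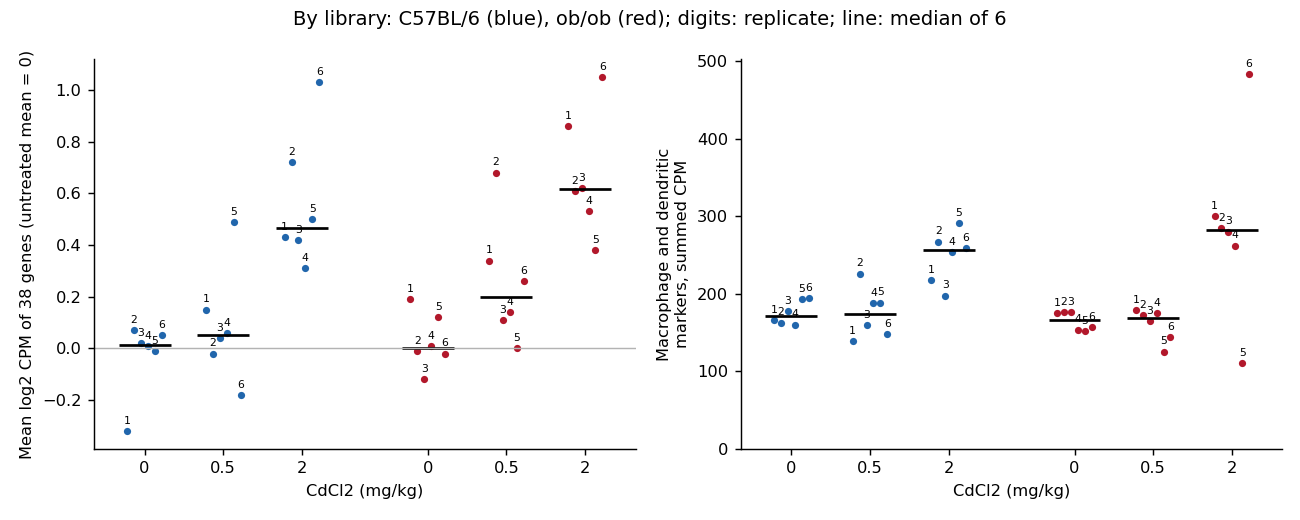
Mean log2 CPM of the 38 genes (left, untreated mean set to 0) and summed CPM of 14 macrophage and dendritic cell markers (right) in each library by dose, C57BL/6 in blue and ob/ob in red, with replicate numbers and the median of 6 as a line. The highest library on the left in C57BL/6 at 2 mg/kg, replicate 6 at 1.03, lies near its group's median on the right, whereas ob/ob replicate 6 is the highest in both panels.

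The genes with the largest ratios were not the same in each high library. In ob/ob at 0.5 mg/kg, replicate 2 was highest for 15 of 18 effectors, with Ifit1 at 14.5 CPM against a median of 4.72 in the other 5 (3.08 times) and Isg15 at 9.48 CPM against 3.75 (2.53 times). All effectors of that library ran from 1.11 to 3.08 times the median of the other 5, and the GTPases from 1.07 to 1.36 times, so these ranges overlapped. The library was also the highest for all 4 MHC class I genes, at 1.05 to 1.18 times, and its Irf1 was the lowest of the group at 18.5 CPM. In C57BL/6 at 0.5 mg/kg, the 2 largest ratios in replicate 5 were those of the GTPases Gbp2 and Igtp. Gbp2 was at 31.5 CPM against 8.39 (3.76 times) and Igtp at 32.96 CPM against 12.1 (2.73 times). Gbp3 was at 2.07 times and Tap1 at 1.79 times, with the highest Irf1 of the group at 27.1 CPM. The GTPase Gbp7 was at 1.17 times. Among its effectors Usp18 was at 2.25 times, Xaf1 at 1.73, Mx1 at 1.69, Isg15 at 1.47 and Ifit1 at 1.46 times the median of the others. In C57BL/6 at 2 mg/kg, replicate 6 was highest for 17 of 18 effectors and for none of the 4 MHC class I genes, and its Irf1 was the lowest of the group. The highest libraries at 2 mg/kg in ob/ob for all 4 MHC class I genes were likewise not replicate 6: replicate 5 held H2-K1 at 584 CPM, Tap1 at 43.8 CPM and B2m at 648 CPM.

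**Figure D5:**
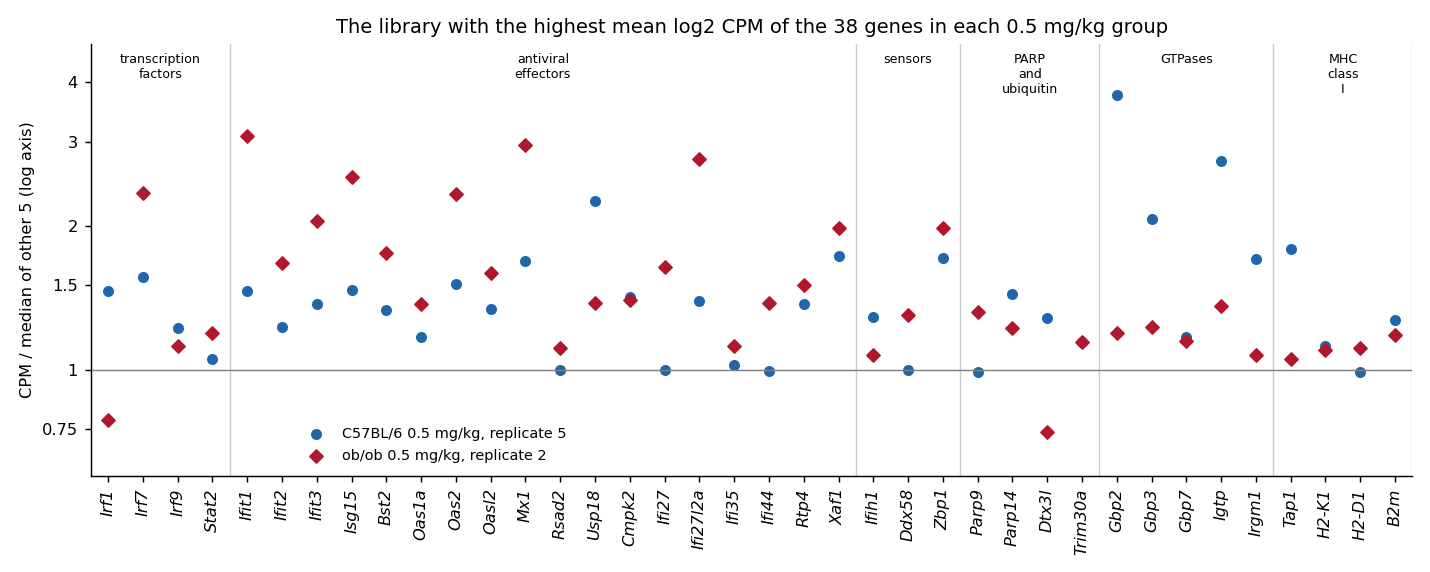
CPM of each gene in 1 library divided by the median of the other 5 libraries of its group (y axis, log scale), for the library with the highest mean over the 38 genes in C57BL/6 (blue, replicate 5) and in ob/ob (red, replicate 2) at 0.5 mg/kg, with genes by role on the x axis. The highest point of the ob/ob library is Ifit1 (3.08 times) and that of the C57BL/6 library is Gbp2 (3.76 times).

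The interferons themselves were barely seen. Of 21 annotated interferon genes, none passed the filter on low counts. Ifnb1 had 0 reads in all 36 libraries, and no interferon gene had more than 8 reads in any library; Ifng had 22 reads over all 36. At this depth a change in interferon RNA was not detectable.

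The receptors were present throughout. Ifngr2, the signalling chain of the interferon gamma receptor, had a median of 17.1 CPM in untreated C57BL/6 and 26.2 CPM at 2 mg/kg, and 19.6 and 33.4 CPM in ob/ob. It rose in both genotypes, by 0.62 ± 0.09 and 0.64 ± 0.09 (adjusted p = 3.79e-06 and 9.15e-07, edgeR), with no overlap. Ifngr1, the ligand-binding chain, gave 0.35 ± 0.18 in C57BL/6 (adjusted p = 0.166, edgeR) and rose in ob/ob by 1.01 ± 0.18 (adjusted p = 3.61e-05, edgeR), or by 0.60 without replicate 5, which had 158 CPM against a group median of 56.6. Ifnar1 gave 0.19 ± 0.08 (adjusted p = 0.0866, edgeR) and rose in ob/ob by 0.33 ± 0.08 (adjusted p = 0.00153, edgeR). Ifnar2 gave 0.18 ± 0.07 and 0.11 ± 0.07 and passed in neither. Without ob/ob replicate 5 in the fit, Ifnar1, Ifnar2 and Ifngr1 were also called higher in C57BL/6, at adjusted p-values of 0.031, 0.0449 and 0.000817 (edgeR).

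Related genes were counted from lists of the pathway. Of 83 other interferon-induced genes tested, 27 rose and 3 fell at 2 mg/kg in C57BL/6, and 31 rose and 3 fell in ob/ob. The shares of all genes were 12.3% higher and 11.4% lower in C57BL/6, and 20.4% and 18.0% in ob/ob, and the same shares apply to each list at this dose. Those with the smallest adjusted p were Plac8, a small cysteine-rich protein (1.07 ± 0.11 in C57BL/6 and 1.20 ± 0.11 in ob/ob, adjusted p = 4.82e-09 and 1.94e-10, edgeR), and Ifi27l2b in C57BL/6 (5.01 ± 0.64, adjusted p = 3.04e-07, edgeR). The fold of Ifi27l2b rests on a near absence in untreated libraries, with medians of 0.0303 CPM untreated and 1.79 CPM at 2 mg/kg. Its ob/ob levels, with all libraries kept, ran from 0.058 to 0.236 CPM untreated and from 0.81 to 3.52 CPM at 2 mg/kg. In the fit without ob/ob replicate 5 the ob/ob rise was 4.22 (adjusted p = 9.95e-08, edgeR). In ob/ob Lgals3bp, a secreted galectin ligand, rose by 2.01 ± 0.23 (adjusted p = 1.56e-08, edgeR), or by 1.48 without replicate 5. Pnpt1, a mitochondrial RNA exonuclease, fell there by 0.70 on the log2 scale (adjusted p = 1.04e-08, edgeR). In the fit without that library their C57BL/6 changes were 1.63 and -0.39 (adjusted p = 2.64e-14 and 8.65e-05, edgeR). With all libraries kept, the C57BL/6 levels of Lgals3bp ran from 38.8 to 58.85 CPM untreated and from 135 to 187 CPM at 2 mg/kg, without overlap. The C57BL/6 changes of these genes in the fit with all libraries are not given here. Ly6a, the stem cell antigen Sca-1, fell by 0.69 in C57BL/6 (adjusted p = 9.7e-07, edgeR). Its ob/ob change without replicate 5 was 0.14 (adjusted p = 0.256, edgeR). The lists of nucleic acid sensing (22 tested) and of receptors and JAK-STAT genes (15 tested) had 6 and 5 genes higher and none lower in C57BL/6, and 9 and 8 higher and none lower in ob/ob. Without ob/ob replicate 5 the sensing list had 9 higher and 1 lower in C57BL/6 and 7 higher in ob/ob, and the JAK-STAT list 8 higher in C57BL/6 and 7 higher and 1 lower in ob/ob. The shares of all genes in that fit were 17% higher and 17.7% lower in C57BL/6, and 19.1% and 18.9% in ob/ob.

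Of 24 other class I and antigen-processing genes tested, 7 rose and 1 fell in C57BL/6, and 9 rose and 3 fell in ob/ob at 2 mg/kg, where 20.4% of all genes were called higher and 18.0% lower. Erap1, the peptide-trimming aminopeptidase, rose by 0.62 ± 0.08 in C57BL/6 (adjusted p = 2.53e-07, edgeR). H2-Q2, a non-classical heavy chain, rose in ob/ob by 2.27 ± 0.25 (adjusted p = 1.12e-08, edgeR) and already at 0.5 mg/kg by 1.38 ± 0.25 (adjusted p = 0.000378, edgeR). In the fit without ob/ob 2 mg/kg replicate 5, Erap1 rose in ob/ob at 2 mg/kg by 0.59 (adjusted p = 1.39e-07, edgeR). Its ob/ob change in the fit with all libraries is not given here. H2-Q2 without that library rose in C57BL/6 at 2 mg/kg by 1.58 (adjusted p = 7.06e-06, edgeR). With all libraries kept, its C57BL/6 levels ran from 0.376 to 1.02 CPM untreated and from 1.87 to 2.60 CPM at 2 mg/kg, without overlap. Of 10 MHC class II genes, which present peptides from outside the cell, 3 rose in C57BL/6 and 6 in ob/ob, and none fell. The peptide-loading genes H2-DMb1 (0.88 ± 0.11 and 1.09 ± 0.11, adjusted p = 1.69e-07 and 8.77e-10, edgeR) and H2-DMb2 (2.59 ± 0.30 and 2.82 ± 0.30, adjusted p = 5.59e-08 and 5.29e-09, edgeR) rose in both. Without ob/ob 2 mg/kg replicate 5 the class II counts were 8 in C57BL/6 and 9 in ob/ob, against 17% and 19.1% of all genes called higher.

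Markers of macrophages and dendritic cells were higher at 2 mg/kg as well, and none was called at 0.5 mg/kg. Of 14 macrophage and dendritic cell markers, all with reads in all 36 libraries, 9 rose and none fell in C57BL/6 at 2 mg/kg, and 12 rose and 1 fell in ob/ob. Without ob/ob replicate 5, 13 were higher in each genotype and 1 was lower in ob/ob. The shares of all genes called higher were then 17% in C57BL/6 and 19.1% in ob/ob. The summed level of the 14 markers ranged from 160 to 194 CPM in untreated C57BL/6, from 139 to 226 CPM at 0.5 mg/kg and from 198 to 291 CPM at 2 mg/kg. In ob/ob it ranged from 151 to 176 CPM, from 125 to 179 CPM and, at 2 mg/kg, from 262 to 484 CPM in 5 libraries with 111 CPM in replicate 5. At 2 mg/kg the 5 libraries and all 6 of C57BL/6 lay above their untreated groups. In ob/ob replicate 5 this sum was below every untreated library. There 8 of the 38 genes were the highest of the group, B2m, Tap1 and H2-K1 among them. The lowest of the group were 19 of the 38, Isg15, Oasl2 and Zbp1 among them. Of all tested genes, 36.31% were the highest and 40.89% the lowest in this library. Its mean over the 38 genes was also the lowest of the group, at 0.38. In C57BL/6 replicate 6 at 2 mg/kg, where the 38 genes were highest, the sum was 258 CPM against a group median of 256. Beyond these values, the part of macrophages in the rise was not tested.

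Marker RNA of other immune cells was low. Across the 36 libraries, the summed level of 12 T and NK cell markers ranged from 3.43 to 10.4 CPM, 4 B cell markers from 1.06 to 4.74 CPM, 5 neutrophil markers from 1.55 to 8.35 CPM and 4 plasmacytoid dendritic cell markers from 1.01 to 8.26 CPM. Of these markers the neutrophil gene Ly6g had reads in 8 libraries and the NK genes Ncr1 and Klrb1c in 22 and 21, with no more than 12 reads in any. At 2 mg/kg the T and NK list had 0 of 9 tested genes called in C57BL/6 and 2 higher in ob/ob, the B list 0 and 2 lower, the neutrophil list 0 and 0, and the plasmacytoid list 0 and 1 higher. The plasmacytoid call was lost without ob/ob replicate 5, which alone held the 8.26 CPM. In ob/ob 20.4% of all genes were called higher and 18.0% lower at this dose, and in C57BL/6 12.3% and 11.4%. Proximal tubule markers fell in the same libraries, 3 of 8 in each genotype (6 and 4 without ob/ob replicate 5), with median sums of 46760 CPM untreated and 27260 CPM at 2 mg/kg in C57BL/6 and 23990 and 12640 CPM in ob/ob. Podocyte and endothelial markers had 0 of 4 and 0 of 9 called in C57BL/6, and 4 of 4 and 9 of 9 lower in ob/ob. Without ob/ob replicate 5 the endothelial counts were 2 lower in C57BL/6 and 6 lower in ob/ob. In that fit 17.7% of all genes were called lower in C57BL/6 and 18.9% in ob/ob. Whether a changed mix of cells contributed to the rise of the interferon and MHC class I genes was not tested.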

How the data were processed

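Kidney RNA of 36 libraries (6 groups of 6) was sequenced from total RNA with an integrity number above 6.5, per the labels' protocols. Per the submitters' processing notes, reads passed through bcl2fastq, Trimmomatic, FastQC and STAR with the GRCm38 genome. Per the file headers, the deposited files hold raw counts of reads over each gene's exons, from featureCounts 1.4.6-p2 with the Ensembl 96 annotation, with no strand setting in the command. A joined table with 36 columns was not used, since some of its columns differ from the per-sample files of the samples they appear to name, and each library's counts come from its own file. All 55536 identifiers matched GENCODE M21 by start and end.

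From these counts, CPM on TMM-scaled library sizes (factors from 0.892 to 1.12), log2 changes and p-values were computed with R 4.3.3 and edgeR 4.0.16. The default expression filter kept 18180 genes, all 36 libraries entered 1 edgeR quasi-likelihood model (1 mean for each group), and 9 comparisons were tested with Benjamini-Hochberg adjustment over all genes and a threshold of 0.05. The SE is the log2 change divided by the square root of F. The mean over genes used log2 CPM with a prior count of 2. The script was tested on simulated counts. The intervals and the floor of 3 reads cover counting error or the model's spread only.

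The genes and the companion and marker lists were chosen with earlier results of these data known. The naming rule fixed 16 genes by role (Irf1, Irf7, Irf9, Stat2, Ifit1, Isg15, Rsad2, Oas1a, Ifih1, Zbp1, Bst2, Gbp2, Igtp, Tap1, H2-K1, B2m). Their levels are given in the untreated and 2 mg/kg groups of both genotypes. At the lower dose, group levels are given only for Stat2 in both genotypes and for Bst2, B2m and Irf7 in ob/ob. The rule added up to 8 called genes of smallest adjusted p per comparison. Between the doses, only Mx1, Bst2 and Ifit2 of the called genes are reported. Of the companions, Ifnar1, Ifnar2, Ifngr1, Ifngr2 and at most 6 called genes of smallest adjusted p per comparison are named, and 1 further gene of the rule is not reported here. The other members are named to account for the set. Alternatives were DESeq2 1.42.0, relative log expression scaling, library size alone, no filter, the compared groups alone, a replicate block and each library left out in turn. The list counts without ob/ob 2 mg/kg replicate 5 were added after seeing the data. Replicate numbers are shared between groups, and deviations of same-numbered libraries were at most weakly correlated (from -0.17 to 0.16).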

Additional observations from a re-analysis of the deposited data

Results flagged for a closer look

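In the values of 21 named genes, 126 groups of 6 libraries were looked at for a library whose gap to its neighbour exceeded Dixon's critical share of the group's range, and 17 had one; chance flags about 1 in 20 groups. Most fell in a few libraries. In C57BL/6 at 2 mg/kg, replicate 6 was far above the rest for Irf7 (41.6 CPM), Isg15 (10.1 CPM), Oas1a (10.9 CPM), Zbp1 (4.7 CPM) and Parp14 (43 CPM). In C57BL/6 at 0.5 mg/kg, replicate 5 was far above for Irf7 (20 CPM), Gbp2 (31.5 CPM) and Igtp (33 CPM).

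In ob/ob at 0.5 mg/kg, replicate 2 was far above for Ifit1 (14.5 CPM), Isg15 (9.48 CPM), Bst2 (52.2 CPM) and Ifi27 (59.5 CPM). In ob/ob at 2 mg/kg, replicate 5 was far above for Rsad2 (48.7 CPM), Tap1 (43.8 CPM), H2-K1 (584 CPM) and B2m (648 CPM). One untreated ob/ob library, replicate 4, was far below for Irf7 (9.12 CPM).

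Ly6e, Ly6a and H2-Q6, related genes outside the set, responded differently in the 2 genotypes at 2 mg/kg by the interaction term of edgeR. The membrane protein Ly6e had a response higher by 1.07 on the log2 scale in ob/ob (adjusted p = 0.00982): its median went from 507 to 264 CPM in C57BL/6 and from 248 to 206 CPM in ob/ob. Ly6a differed by 0.82 (adjusted p = 0.000504), from 703 to 410 CPM in C57BL/6 and from 450 to 489 CPM in ob/ob. H2-Q6, a class I heavy chain, differed by -0.76 (adjusted p = 0.00534), from 15.4 to 18.6 CPM and from 22.2 to 14.6 CPM. Without ob/ob replicate 5 the differences were 0.83, 0.83 and -0.74, and all 3 passed the test.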

How the results depend on the processing

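The counts of called genes at 2 mg/kg stayed within 1.5 times under DESeq2, other scalings, no filter and the compared groups alone, from 25 to 33 in C57BL/6 and from 26 to 29 in ob/ob. In the fit to the compared groups alone, 1 gene of the 33 in C57BL/6 was called lower. With library size alone, 6 genes differed between the controls, 1 rose in ob/ob at 0.5 mg/kg and 26 were higher at 2 than at 0.5 mg/kg in ob/ob. With the compared groups alone these became 6 between the controls and 11 between the ob/ob doses, and 1 interaction was called at 0.5 mg/kg. The cause was not tested.

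Leaving out each library in turn gave 1 to 5 calls between the controls, 18 to 30 in C57BL/6 at 2 mg/kg, 24 to 31 in ob/ob at 2 mg/kg, 11 to 23 and 12 to 23 between the doses, 3 to 5 in ob/ob at 0.5 mg/kg, 0 to 1 for the interaction at 0.5 mg/kg, and 0 for the C57BL/6 low dose and the interaction at 2 mg/kg. Single genes were scored only in fits that left out a library of the compared groups or ob/ob 2 mg/kg replicate 5. Of the 28 genes called at 2 mg/kg, 17 in C57BL/6 kept their call in all 13 such fits, and 24 in ob/ob in all 12. None of the 96 gene results reversed under any alternative in which it was scored.

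With the replicate number as a block, the counts were 3 between the controls, 0 and 28 in C57BL/6 at 0.5 and 2 mg/kg, 4 and 29 in ob/ob, 16 and 18 between the doses and 0 for both interactions. The numbers showed no clear pairing: 1 of 6 pairs at most correlated above 0.1 in any comparison, and at most 3 of 6 libraries correlated best with their own number. Those 3 were between the untreated genotypes, where same-number correlations ran from 0.02 to 0.08. No reference was set for these counts, so a weak shared effect was not tested by them. Depth limits the rare genes: Ifi47, with at most 19 reads in a library, could not be compared.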
